A study of Mus musculus with 12 samples.

Results

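The 4 sorted libraries of the activator and the repressor screen, of 12 libraries in the series, were compared directly with each other. All were made in wild-type mouse embryonic stem cells (mESC), diploid cells of a line that was originally haploid, and all carried TetR-tagged insertions from the ORFtag method. ORFtag is a retroviral cassette with a PGK promoter, a neomycin resistance gene, a tag and a splice donor. When it lands in or ahead of a gene, the tag can be spliced onto the next exon that has a splice acceptor. Where the reading frames match, the cell makes a tagged version of that protein from the exon onward. An equal mix of cassettes for all reading frames was used, and the insertion lists do not give the frame. In the activator screen the reporter was a silent minimal promoter (pMYLPF) next to TetO sites, driving puromycin resistance and GFP, and GFP-positive cells were collected (activator sorted, 2 replicates). In the repressor screen an active PGK promoter next to TetO sites drove the same genes, with a BFP gene on an EF1 promoter upstream, and GFP-negative cells were collected (repressor sorted, 2 replicates). Both reporters sat in the same locus on Chr15, and each reporter line was a single clone, so the reporter, the clone and the direction of the sort change together and cannot be told apart. Each screen also had 2 unsorted libraries of G418-selected cells, which gave the insertions before sorting.

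TetR brings whatever it is fused to onto TetO DNA. An activator usually works there by calling in Mediator, histone acetyltransferases or H3K4 methyltransferases, and a repressor by calling in deacetylases, demethylases, H3K9 methylation with HP1, or Polycomb complexes. Many DNA-binding proteins can do either, depending on which partner is bound. A direct comparison of both sorted pools asks which tagged genes go with a gain of GFP alone (one-way activators), with a loss of GFP alone (one-way repressors), or with both (two-way).

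Depth was the number of unique insertion positions within 200 kb of the assigned exon. It was 17397 and 14705 in activator sorted replicates 1 and 2, and 22266 and 15204 in repressor sorted replicates 1 and 2. The unsorted libraries of both screens held 174276 to 207613. A count of 0 in both libraries of a group allows up to 3 counts, which is 0.935 per 10000 insertions in the activator sorted and 0.801 in the repressor sorted group. The replicates were not equally independent. Repressor sorted replicates 1 and 2 had 4892 positions in common (18.2% and 26.0% of their positions), whereas the activator sorted replicates had 402 in common (1.76% and 2.26%), and an activator sorted with a repressor sorted library at most 43. Of the positions of activator sorted replicate 2, 19.5% were also found in activator unsorted replicate 2. The p-values given here therefore measure the spread between these libraries, and counts of calls without the positions shared between sorted libraries are given too.

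Direct comparison of the sorted pools called 295 genes. Of 1147 genes with at least 10 insertions over the 4 sorted libraries, 125 had more insertions in the activator sorted libraries (10.9%) and 170 had more in the repressor sorted libraries (14.8%; edgeR quasi-likelihood test, Benjamini-Hochberg adjusted p below 0.05). The smallest change called was 2.33 on the log2 scale toward the activator side and -2.20 toward the repressor side. No insertion at all was found in the other group for 57 of the 125 and for 52 of the 170 genes. With positions shared between sorted libraries removed, 108 and 159 genes were called, of which 107 and 157 were the same genes. Leaving out repressor sorted replicate 2 reduced the activator side most, to 39 genes. Leaving out activator sorted replicate 1 reduced the repressor side most, to 95 genes.

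A second fit set each sorted pair against the unsorted libraries of its own screen, so that no control was used for both screens. In this fit, of 10767 genes, 118 were up for activators (1.10%) and 192 for repressors (1.78%; adjusted p below 0.05 and log2 fold change of at least 1). Both fits together gave 103 one-way activator genes, 162 one-way repressor genes and 3 two-way genes. Another 12 genes were up among activator sorted cells alone, and 27 among repressor sorted cells alone, without passing the direct test, and 30 genes passed the direct test without being up in either screen.

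**Figure D1:**
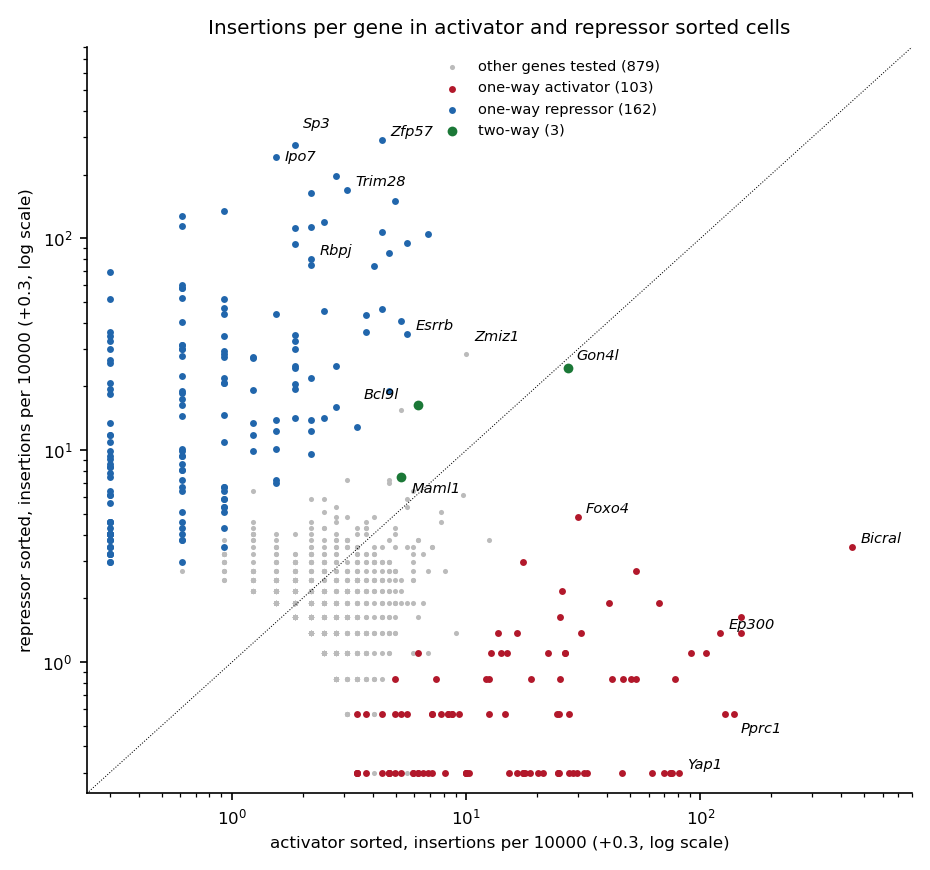
Insertions per gene in the 2 activator sorted libraries (x axis) and the 2 repressor sorted libraries (y axis), summed by group, per 10000 insertions, with 0.3 added on log scales. Each point is 1 of 1147 genes tested, red for 103 one-way activator, blue for 162 one-way repressor and green for 3 two-way genes. The one-way genes lie along both axes, and Gon4l lies on the dotted line of equal values.

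The one-way genes took a large part of their own sorted libraries. The 103 one-way activator genes held 21.3% of the insertions of activator sorted replicate 1 (95% Wilson interval 20.7% to 21.9%) and 46.6% of replicate 2 (45.8% to 47.4%). In the repressor sorted libraries they held 0.499% and 0.368%, below their share in the repressor unsorted libraries (0.890% and 0.868%). The 162 one-way repressor genes held 53.1% and 53.3% of the repressor sorted libraries. They held 1.80% and 1.14% of the activator sorted libraries, again below the activator unsorted libraries (both 2.3%). Where 1 class took a large part of a library, the share left for all other genes was smaller. A lower share in the other pool is therefore not by itself a loss of these insertions. These shares describe genes that were selected on the same counts, and carry no test. The fitted change in the other screen was below 0 for 75 of 103 one-way activator genes (median -1.74 on the log2 scale) and for 135 of 162 one-way repressor genes (median -1.22), but it passed the test as a decrease for 1 and 0 of them. The direct test that defined these classes favours low counts in the other pool, so a change below 0 there was favoured in advance. In the other pool 48 of the 103 and 51 of the 162 genes had 0 insertions. The share below 0 over all genes fitted is not given here. Genes at 0 in a group have fitted changes that depend on the value added by the fit, so these medians are not bounds.

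**Figure D2:**
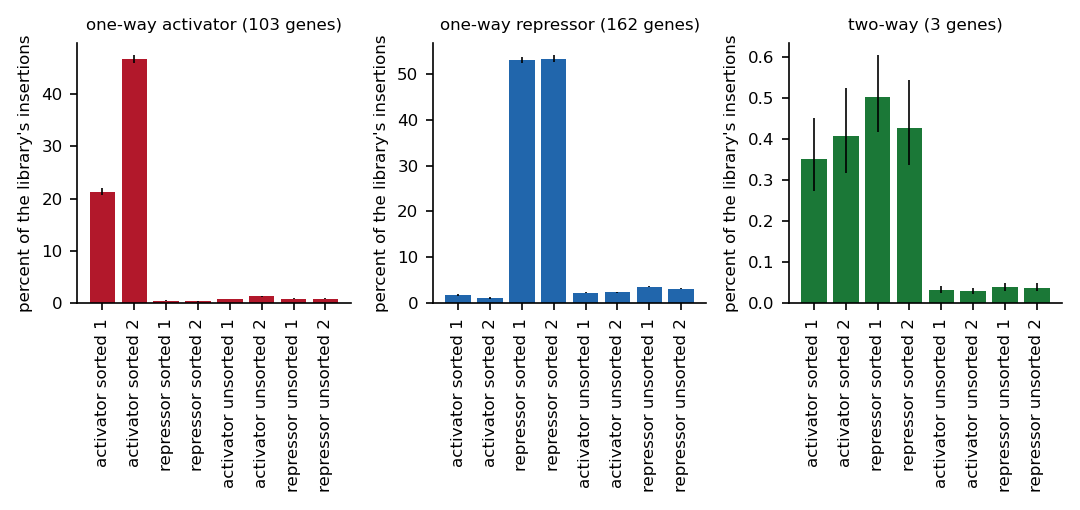
Percent of each library's insertions (y axis) that lay in one-way activator (left), one-way repressor (middle) and two-way genes (right), in the 4 sorted and the 4 unsorted libraries (x axis); error bars are 95% Wilson intervals, which cover counting error only. The axes differ: two-way genes held 0.351% to 0.503% of every sorted library and 0.0289% to 0.0384% of the unsorted libraries.

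The unsorted libraries were not fully alike at these genes. One-way repressor genes held 3.63% and 3.18% of the repressor unsorted libraries, against 2.3% of both activator unsorted ones. One-way activator genes held 1.30% of activator unsorted replicate 2, against 0.855% to 0.890% of the other 3. Across all genes, 4 genes of the activator side and 16 of the repressor side also differed in the same direction between the unsorted libraries of both screens. No called gene differed there in the opposite direction.

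The 12 leading genes of the activator side are described first. Bicral, a subunit of the GBAF (BRD9-containing) chromatin remodeller, had 348 and 1073 insertions in the activator sorted and 10 and 2 in the repressor sorted libraries (log2 fold change 7.02 ± 0.65 SE, adjusted p = 1.76e-23). Its activator sorted level was 465 ± 375 per 10000 insertions (SD, n = 2) against 2.90 ± 2.25, so that the activator sorted libraries differed widely from each other and both stood far above the repressor sorted ones. Yap1, the coactivator restrained by the Hippo kinases, had 70 and 189 insertions against 0 and 0, at least 101-fold higher when 3 counts are allowed in the repressor sorted group (adjusted p = 1.52e-12). Ep300, the histone acetyltransferase p300, had 149 and 240 against 3 and 1 (6.57 ± 0.87, adjusted p = 4.58e-12).

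Setd1b, an H3K4 methyltransferase, had 193 and 284 insertions against 2 and 2. Med26, a Mediator subunit that links it to elongation factors, had 83 and 158 against 0 and 0, and Ss18, a BAF subunit, had 98 and 126 against 0 and 0.

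Pprc1, a PGC-1-related coactivator, and Ldb1, the LIM domain-binding adaptor, are neighbours on chromosome 19 on opposite strands. Pprc1 had 161 and 284 insertions against 0 and 1, and Ldb1 had 167 and 239 against 1 and 0. Both genes also passed the test for insertions assigned on the reversed strand (adjusted p = 7.01e-07 for Pprc1 and 1.27e-06 for Ldb1). The reversed counts of Pprc1 in the activator sorted libraries were 167 and 239, the sense counts of Ldb1, and those of Ldb1 were 160 and 284, against 161 and 284 sense insertions of Pprc1. The remaining leading genes were the forkhead factors Foxj2 (195 and 284 against 3 and 2) and Foxo6 (71 and 267 against 2 and 1), Wwtr1, which encodes the Yap1 paralogue TAZ (69 and 171 against 0 and 0), and Tsx, a testis-expressed X-linked gene (87 and 150 against 0 and 0).

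On the repressor side Sp3 had the lowest adjusted p. Sp3, a GC-box-binding zinc finger factor, had 598 and 435 insertions in the repressor sorted and 4 and 1 in the activator sorted libraries (log2 fold change -7.73 ± 0.75, adjusted p = 1.25e-21). Its repressor sorted level was 277 ± 12.4 per 10000 (SD, n = 2), so both replicates were close together. These replicates had 4892 positions in common over all genes, so their closeness is not that of independent libraries. Sp1, of the same family, had 231 and 216 against 4 and 3. Zfp57, the KRAB zinc finger protein that maintains genomic imprints, had 564 and 520 against 6 and 7 (-6.41 ± 0.67, adjusted p = 1.55e-18). Trim28, the corepressor that KRAB zinc finger proteins recruit, had 331 and 302 against 7 and 2 (-6.23 ± 0.75, adjusted p = 2.17e-14), and its reversed insertions passed the test in the same direction (adjusted p = 0.00996).

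Morc1, which is needed for transposon silencing in the male germline, had 469 and 268 insertions against 6 and 2. Of its insertions in the sorted libraries 83.5% led to exon 21, with 74.3% of the coding sequence ahead of it. A tag spliced there in frame would thus be followed by only the last part of the protein. Rcor2, a CoREST subunit that holds the demethylase LSD1, had 347 and 267 against 3 and 3. The zinc finger genes Zfp825 (242 and 234 against 1 and 0), Zfp872 (281 and 220 against 1 and 1) and Zfp870 (236 and 181 against 3 and 2) followed the same pattern. Many zinc finger genes have near-identical copies, and reads of low mapping quality were removed by the authors, so their counts are less certain than those of single genes.

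Ipo7, a nuclear import receptor, had 476 and 433 insertions against 3 and 1 (-7.85 ± 0.78, adjusted p = 7.77e-21), second only to Sp3 in adjusted p. Gm35315, a predicted gene, had 216 and 212 against 1 and 0, and Olfr130, an olfactory receptor gene, had 151 and 109 against 0 and 0, at least 74.3-fold higher in the repressor sorted group. The plot of values by library shows the 12 leading genes of each side. Their groups did not overlap, which follows from how they were chosen, and of all 1147 genes tested 431 had both activator sorted libraries above both repressor sorted ones and 248 the reverse.

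**Figure D3:**
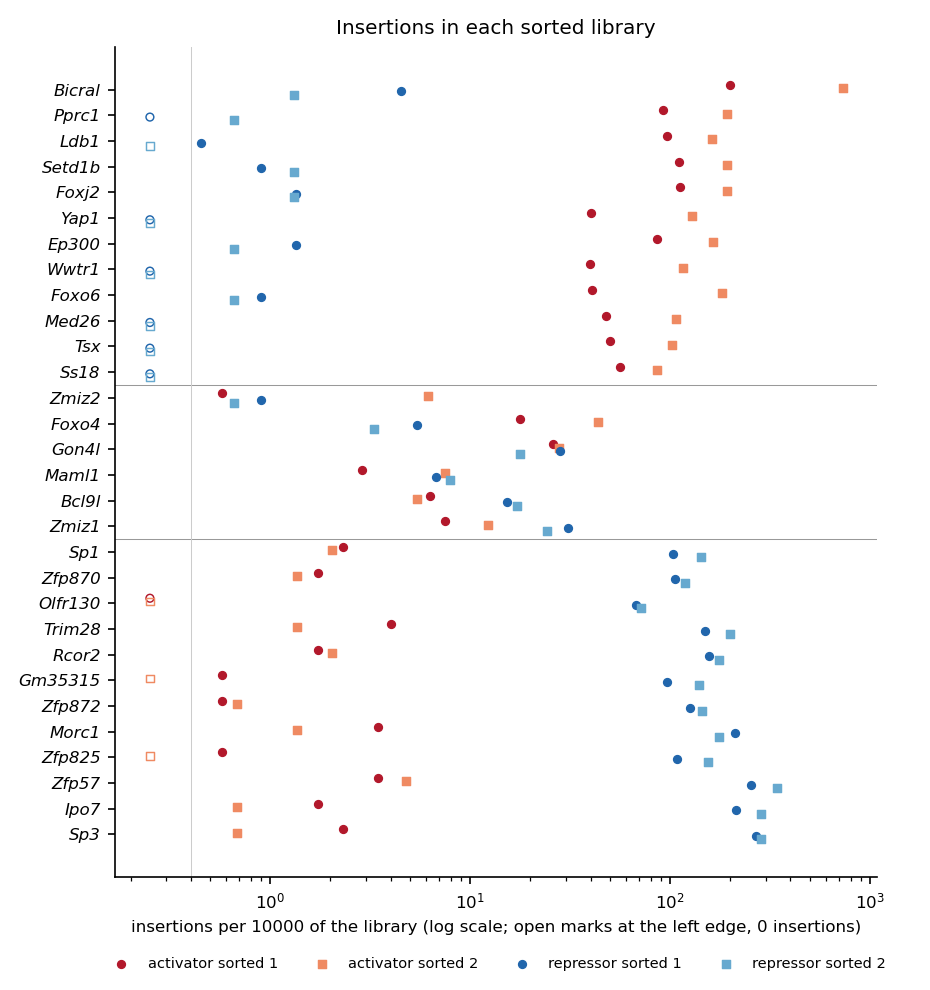
Insertions per 10000 (x axis, log scale) in each of the 4 sorted libraries for the 12 leading genes of the activator side (top), 6 genes that were two-way, near that class or named for other reasons (middle) and the 12 leading genes of the repressor side (bottom); open marks are 0 insertions. Red and orange marks (activator sorted) and blue marks (repressor sorted) do not overlap in the top and bottom blocks, and they interleave for Gon4l and Maml1.

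Gene lists were read by how many tested members passed the direct test, beside the 10.9% and 14.8% of all genes tested. Only members with at least 10 insertions over the 4 sorted libraries were tested. Some therefore entered through the pool where they were high alone, such as those with 0 insertions in the other pool. The data held 18 COMPASS, 33 Mediator, 25 forkhead and 21 HP1 and H3K9 methylation genes. They also held 10 p300, CBP and p160, 28 TFIID and SAGA, 11 signal-regulated and 5 NF-kappaB genes. Of the other repressor lists there were 40 Polycomb, 13 CoREST and LSD1, 41 corepressor and 25 Sp and Kruppel-like genes. Tallies of tested members do not describe these whole families. Of the COMPASS H3K4 methyltransferase subunits, 6 of 7 tested were higher in the activator sorted libraries and none was higher in the repressor sorted libraries, with a median log2 fold change of 6.34 against 0.14 over all genes tested. They included Rbbp5, a core subunit (110 and 139 insertions against 2 and 0), and the methyltransferases Kmt2c (82 and 88 against 5 and 4) and Kmt2b (14 and 11 against 0 and 0). Of the Mediator subunits 5 of 6 tested were on this side, among them Med15 (25 and 34 against 0 and 0), Med14 (20 and 36 against 0 and 0) and Med25 (9 and 68 against 1 and 0). Med25 differed strongly between its activator sorted libraries.

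Of the p300, CBP and p160 coactivators 4 of 7 tested were higher in the activator sorted libraries: Ep300, its paralogue Crebbp (17 and 30 insertions against 1 and 2) and the p300-binding adaptors Cited2 (14 and 17 against 0 and 0) and Cited1 (2 and 14 against 0 and 0). Of TFIID and SAGA subunits 3 of 7 tested passed on this side: Atxn7l3 (34 and 33 against 0 and 0) and Atxn7 (12 and 12 against 1 and 0) of the SAGA deubiquitinase module, and the TFIID subunit Taf4b (4 and 17 against 0 and 0), whose reversed insertions passed in the same direction (adjusted p = 0.000233). Of 11 signal-regulated coactivators in the data 5 were tested, and all 5 passed. These were Pprc1 and the CREB coactivators Crtc3 (27 and 28 against 0 and 0) and Crtc2 (6 and 12 against 0 and 0). The others were the SRF coactivators Mrtfb (31 and 53 against 1 and 2) and Mrtfa (10 and 12 against 1 and 0). All 5 reached 10 insertions only through the activator sorted libraries, which favoured the call in advance.

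All 8 forkhead factors tested were higher in the activator sorted libraries (median log2 fold change 6.69), among them Foxn1 (64 and 83 insertions against 0 and 0) and Foxo3 (41 and 129 against 1 and 1). Of the coding sequence, 84.4% lay ahead of the exon with most insertions in Foxo3, and 24.7% to 31.7% in Foxn1, Foxo1, Foxo4 and Foxo6. In Foxn4 it was 5.50%, and in Foxj2 and Foxj3 0%. All 3 NF-kappaB members tested were also higher in the activator sorted libraries: Relb (66 and 95 against 0 and 2), Rela (22 and 72 against 0 and 0) and, less clearly, Rel (5 and 14 against 1 and 2, adjusted p = 0.0302). These 3 also had enough insertions to be tested only through the activator sorted libraries. Fewer members passed without repressor sorted replicate 2, when the repressor side is 1 library and the spread comes from the activator pair alone. In that fit the log2 fold change was 7.01 for Setd1b, 6.46 for Foxj2, 6.17 for Ep300 and 6.64 for Foxo6. None of these genes passed there. Bicral, the first of the leading genes of this side, and Ldb1 kept their direction but likewise did not pass without repressor sorted replicate 2. Without it, 2 of 8 forkhead, 2 of 7 COMPASS, 1 of 7 p300, CBP and p160, 2 of 5 signal-regulated, 1 of 7 TFIID and SAGA, 1 of 3 NF-kappaB and 3 of 6 Mediator genes still passed. With shared positions removed 8, 6, 4, 5, 3, 2 and 5 passed.

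**Figure D4:**
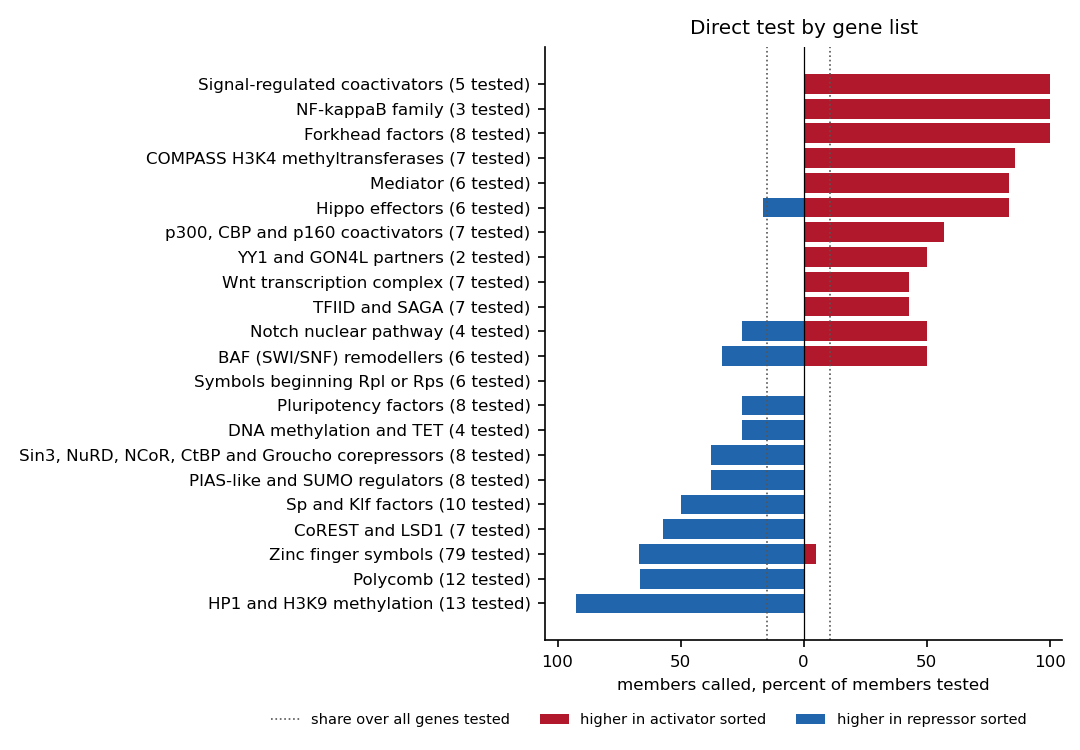
Percent of the tested members of each gene list that were higher in activator sorted (red, right) or in repressor sorted libraries (blue, left); the number of members tested is in parentheses and dotted lines mark the shares over all 1147 genes, 10.9% and 14.8%. The Hippo, Notch and BAF lists have bars on both sides, and so do zinc finger symbols, with 4 genes on the activator side and 53 on the repressor side.

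Of the HP1 and H3K9 methylation genes 12 of 13 tested were higher in the repressor sorted libraries and none in the activator sorted libraries, with a median log2 fold change of -5.34. After Trim28 came Atf7ip, the partner of the H3K9 methyltransferase SETDB1 (284 and 276 insertions against 11 and 4), and the HP1 genes Cbx5 (65 and 47 against 1 and 0) and Cbx3 (34 and 49 against 1 and 0). Of Polycomb genes 8 of 12 tested passed on this side, among them Kdm2b (186 and 93 against 2 and 4) and Pcgf6 (46 and 24 against 1 and 0) of variant PRC1 complexes, and Cbx7 (70 and 36 against 0 and 2) and Phc1 (61 and 61 against 4 and 1) of canonical PRC1. Of CoREST and LSD1 genes 4 of 7 tested passed: Rcor2, Gse1 (74 and 18 against 4 and 1), Phf21a (25 and 15 against 2 and 0) and Kdm1a, which encodes LSD1 itself (20 and 9 against 0 and 1).

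Fewer members passed among the Sin3, NuRD, NCoR, CtBP and Groucho corepressors. These were 3 of 8 tested, namely Ncor1 (256 and 136 insertions against 15 and 6), the NuRD remodeller Chd3 (35 and 29 against 0 and 1) and the Sin3 subunit Arid4b (11 and 4 against 1 and 0). The SUMO modifiers Sumo2 (128 and 97 against 1 and 0) and Sumo3 (60 and 36 against 0 and 0) were also higher in the repressor sorted libraries. Of Sp and Kruppel-like factors 5 of 10 passed, among them Klf8 (244 and 112 against 15 and 2) and Sp2 (60 and 42 against 2 and 1), beside Sp3 and Sp1.

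Among genes with zinc finger symbols (beginning Zfp, Zbtb, Zkscan, Zscan or Zik) 79 of 468 were tested, of which 53 were higher in the repressor sorted and 4 in the activator sorted libraries. Of these 53 genes 32 lay within 200 kb of another gene called on the same side. Of all 170 genes called on that side, which include these 53, 49 did (28.8%). Shares for genes that were not called, zinc finger or other, are not given here. A trait of the calls therefore cannot be told from one of the gene family. The 4 on the activator side were Zfp574 (6 and 8 insertions against 0 and 0), Zfp407 (11 and 16 against 0 and 1), Zbtb11 (7 and 8 against 0 and 2) and Zbtb32 (9 and 1 against 0 and 0). With shared positions removed the repressor side held 49 of 72 zinc finger, 12 of 12 HP1 and H3K9, 6 of 11 Polycomb, 4 of 6 CoREST and LSD1, 3 of 6 corepressor and 5 of 9 Sp and Kruppel-like genes tested, and 3 zinc finger genes were on the activator side. Without activator sorted replicate 1 the repressor side held 25 of 68 zinc finger genes tested, 5 of 10 Polycomb and 2 of 5 CoREST and LSD1 genes, and without repressor sorted replicate 1 it held 32 of 50 zinc finger and 5 of 9 Polycomb genes. Without repressor sorted replicate 2, 5 of 11 Polycomb genes passed. The zinc finger genes of the activator side numbered 0 to 2 with any of the 4 libraries left out.

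Of genes with symbols beginning Rpl or Rps, most of which encode ribosomal proteins, 6 were tested and none passed, and none of 122 vomeronasal type 2 receptor genes had enough insertions to be tested. Of pluripotency factors 2 of 8 tested passed, both on the repressor side. Esrrb, an orphan nuclear receptor, had 81 and 50 insertions against 10 and 7 (-2.98 ± 0.82, adjusted p = 0.00155), and Tfcp2l1 had 25 and 10 against 2 and 4 (adjusted p = 0.025). Tet2, the 5-methylcytosine oxidase, was the only 1 of 4 DNA methylation genes tested that passed (45 and 25 against 10 and 4, adjusted p = 0.0202). It did not pass with shared positions removed, nor without repressor sorted replicate 1 or 2, and neither pluripotency factor passed without either of these. Without activator sorted replicate 1, 1 of 5 pluripotency factors passed.

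The Hippo pathway split between its coactivators and their antagonist. Yap1, Wwtr1 and the DNA-binding partners Tead4 (38 and 161 insertions against 0 and 0), Tead1 (24 and 80 against 0 and 0) and Tead2 (19 and 61 against 2 and 0) were higher in the activator sorted libraries. Vgll4, which binds TEAD proteins in place of Yap1, had 1 and 0 insertions in the activator sorted and 24 and 10 in the repressor sorted libraries (-4.82 ± 1.15, adjusted p = 0.000235). Thus 5 of 6 tested members were on the activator side and 1 on the repressor side, and this split was the same without shared positions. Without repressor sorted replicate 2 it was 3 and 1.

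The few BAF remodellers tested, 6 of 30, split by subunit. Of these 3 were higher in the activator sorted libraries, 2 were higher in the repressor sorted libraries and 1 did not pass. Bicral, its paralogue Bicra (16 and 22 insertions against 1 and 1, adjusted p = 0.000752) and Ss18 were higher in the activator sorted libraries. The paralogues Arid1a (209 and 142 against 4 and 1, -6.16 ± 0.87, adjusted p = 6.57e-11) and Arid1b (131 and 38 against 5 and 2, -4.57 ± 0.90, adjusted p = 5.52e-06), which define canonical BAF, were higher in the repressor sorted libraries. Bicral and Bicra belong to the GBAF complex, which lacks ARID1 subunits. Without repressor sorted replicate 2, 1 of the 3 genes on the activator side passed, and without activator sorted replicate 1, 1 of the 2 on the repressor side. Reversed insertions passed in the same direction as sense insertions for Ss18 (adjusted p = 0.00207) and Arid1a (adjusted p = 0.00521). The reversed counts of Ss18 in the activator sorted libraries were 4 and 18. These were close to the 4 and 17 sense insertions of Taf4b, which lies on the opposite strand of the same chromosome.

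The nuclear end of the Notch pathway was found on both sides and in the middle. Rbpj, the DNA-binding protein that recruits corepressors until Notch arrives, had 212 and 86 insertions in the repressor sorted and 5 and 1 in the activator sorted libraries (-5.64 ± 0.87, adjusted p = 3.21e-09). The Mastermind-like coactivators that join RBPJ and Notch differed among themselves. Maml2 had 41 and 92 insertions in the activator sorted and 1 and 1 in the repressor sorted libraries (5.95 ± 1.06, adjusted p = 4.37e-07), and Maml3 had 5 and 9 against 0 and 0 (adjusted p = 0.000626), but Maml1 was found in both pools. Neither Maml2 nor Maml3 passed without repressor sorted replicate 2, and 1 of the 2 passed without any other single library.

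Only Gon4l, Maml1 and Bcl9l were up in both screens against their own unsorted libraries. Gon4l encodes a nuclear protein known to bind YY1 and Sin3-HDAC1. It had 45 and 41 insertions in the activator sorted and 63 and 27 in the repressor sorted libraries, or 26.9 ± 1.42 and 23.03 ± 7.45 per 10000 (SD, n = 2), with overlapping values. It was up by 3.88 ± 0.32 in the activator screen (log2, adjusted p = 5.87e-32) and by 3.43 ± 0.30 in the repressor screen (adjusted p = 8.8e-28). The direct log2 fold change was -0.06 with a 95% interval of -1.48 to 1.36, and the difference between both screens' changes was 0.45 (adjusted p = 0.843).

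Maml1 had 5 and 11 insertions in the activator sorted and 15 and 12 in the repressor sorted libraries, 5.18 ± 3.26 and 7.31 ± 0.82 per 10000. It was nearly untouched before sorting, with 1 and 1 insertions in the activator unsorted and 3 and 6 in the repressor unsorted libraries. It was up by 6.09 ± 0.83 (adjusted p = 4.49e-11) and 4.87 ± 0.57 (adjusted p = 1.98e-15). The direct log2 fold change of -0.74 had a 95% interval of -2.35 to 0.87.

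Bcl9l, the BCL9-like adaptor between beta-catenin and Pygopus in Wnt signalling, had 11 and 8 insertions against 34 and 26, without overlap. It was up by 1.86 in the activator screen (adjusted p = 0.0081) and by 3.88 in the repressor screen (adjusted p = 7.09e-27). The direct change of -1.72 did not pass (95% interval -3.32 to -0.11, adjusted p = 0.124), but the change from unsorted was larger in the repressor screen (difference -2.02, adjusted p = 0.00956). Of its Wnt pathway partners Pygo1 had 35 and 29 insertions against 0 and 0. Ldb1 and Tcf7l2 (3 and 7 against 0 and 0, adjusted p = 0.00677) were the other Wnt complex members on the activator side. Tcf7l2 was not up against its own unsorted libraries (log2 fold change 0.21, adjusted p = 0.869). Without repressor sorted replicate 2, 1 of these 3 Wnt genes passed, and without activator sorted replicate 2, 1 of 5 Wnt genes tested passed on the repressor side. Of the YY1 and GON4L partners tested beside Gon4l, Ino80b passed on the activator side, and not with any single library left out or shared positions removed. Gon4l and Maml1 were two-way in each fit that left out 1 sorted library. Bcl9l was not two-way without activator sorted replicate 1 or without replicate 2.

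A pair of genes lay close to this class and joined it under other settings, and were named for that after their values were seen. Foxo4 had 31 and 64 insertions in the activator sorted and 12 and 5 in the repressor sorted libraries. It was up by 4.62 in the activator screen (adjusted p = 2.9e-46) and by 1.47 in the repressor screen (adjusted p = 0.0694). Tada3, an adaptor of acetyltransferase complexes, had 9 and 9 insertions against 19 and 4, up by 1.55 (adjusted p = 0.0694) and by 1.65 (adjusted p = 0.00547).

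Where the cassette frame matches the assigned exon, an insertion tags the part of the protein encoded from that exon onward. Insertions of 1 gene can therefore make different proteins. The frame of each insertion is not known here, and the assigned exon is the nearest one downstream, not an observed splice. Counted by splice acceptor (the first base of the assigned exon) in place of by gene, a count chosen after seeing the data, 1067 acceptors of 981 genes had at least 10 insertions. Of these 156 were higher in the activator sorted (14.6%) and 209 in the repressor sorted libraries (19.6%). More than 1 acceptor was called in 44 genes, and Zmiz1 was the 1 of these with acceptors called in opposite directions. ZMIZ1 is a PIAS-like protein, a family with a SUMO ligase RING domain, and acts as a coactivator of nuclear receptors and Notch.

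By gene, Zmiz1 had 13 and 18 insertions in the activator sorted and 69 and 37 in the repressor sorted libraries, a direct log2 fold change of -1.74 that did not pass (adjusted p = 0.0898). By exon the pools separated. Exon 7 was fed by 4 and 1 insertions in the activator sorted and by 54 and 20 in the repressor sorted libraries (-3.73 ± 1.01, adjusted p = 0.001). Exon 8 was fed by 0 and 0 against 12 and 16 (-6.86 ± 1.53, adjusted p = 6.29e-05). Exon 23 of 24 was fed by 7 and 15 against 0 and 0 (6.66 ± 1.49, adjusted p = 6.69e-05). In the longest matching coding transcript 8.71% and 13.2% of the coding sequence lay ahead of exons 7 and 8, and 88.8% ahead of exon 23. A tag spliced in frame to exon 23 would be followed by the C-terminal end of the protein alone, and one spliced to exon 7 or 8 by most of it. Before sorting, exon 7 held 30 to 59 insertions in each of the 4 unsorted libraries and exon 23 held 0 to 3. Without activator sorted replicate 2 exon 23 had too few insertions to be tested. The adjusted p for exon 23 was 0.00176 with shared positions removed.

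The acceptors of Zmiz1 are shown because insertions on the same gene and strand separated between them. Each line gives the last 30 bases of the intron and the first 10 of the exon on the sense strand, with the AG that ends the intron in capitals (mm10/GRCm38; sequences from RefSeq GRCm38.p6).
Zmiz1 exon 7, chr14:25635843-25635882, plus strand: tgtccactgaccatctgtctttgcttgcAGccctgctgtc
Zmiz1 exon 8, chr14:25643528-25643567, plus strand: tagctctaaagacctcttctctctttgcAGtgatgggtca
Zmiz1 exon 23, chr14:25661237-25661276, plus strand: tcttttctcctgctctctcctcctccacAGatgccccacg
The 28 intron bases before the AG held 20, 20 and 26 pyrimidines.

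The paralogue Zmiz2 gave too few insertions to tell. It had 1 and 9 in the activator sorted and 2 and 1 in the repressor sorted libraries (log2 fold change 1.61, 95% interval -0.21 to 3.43, adjusted p = 0.248). All 9 of activator sorted replicate 2 fed exons 17 to 20, whereas the 4 of the other sorted libraries fed exon 2.

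For Gon4l both pools used the same acceptor. Exon 22 (as the deposited lists number it) was fed by 30 and 32 insertions in the activator sorted and by 56 and 23 in the repressor sorted libraries, and was up in both screens (5.45, adjusted p = 9.78e-37, and 4.11, adjusted p = 1.91e-32). In the coding sequence 66.7% lay ahead of it. Exon 2, ahead of which there is no coding sequence, was fed by 10 and 7 against 3 and 3 and was up in the activator screen only (2.27, adjusted p = 0.00196, against 0.70, adjusted p = 0.576). The direct difference at exon 2 did not pass (1.53 ± 0.88, adjusted p = 0.2). Bcl9l exon 3 (8 and 5 against 27 and 20) and Maml1 exon 2 (5 and 9 against 15 and 12) were also up in both screens, and so was exon 5 of Esrrb on few insertions (3 and 3 against 4 and 1).

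The acceptors of the two-way genes follow in the same layout, with Gon4l exon 2 shown for contrast with exon 22.
Gon4l exon 22, chr3:88898075-88898114, plus strand: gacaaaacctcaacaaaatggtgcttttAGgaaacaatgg
Gon4l exon 2, chr3:88836960-88836999, plus strand: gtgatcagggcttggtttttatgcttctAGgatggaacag
Bcl9l exon 3, chr9:44499418-44499457, plus strand: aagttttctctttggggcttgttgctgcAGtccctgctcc
Maml1 exon 2, chr11:50267001-50267040, minus strand: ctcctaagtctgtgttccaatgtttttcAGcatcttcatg
The pyrimidine count of the 28 bases before the AG was 13 at Gon4l exon 22 and 17, 18 and 20 at the others. Gon4l spans chr3:88835231-88910103, Maml1 chr11:50255634-50292311, Bcl9l chr9:44482825-44511896 and Zmiz1 chr14:25459185-25666743.

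**Figure D5:**
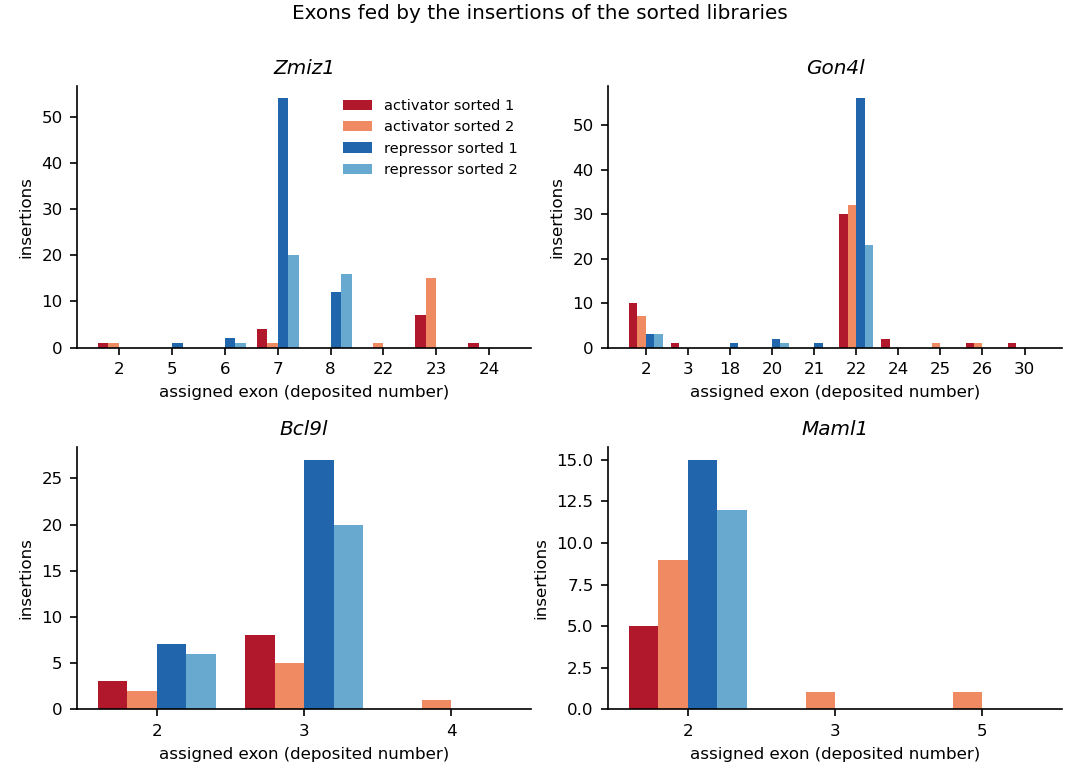
Number of insertions (y axis) that fed each exon (x axis, numbered as in the deposited lists) in the 4 sorted libraries for Zmiz1, Gon4l, Bcl9l and Maml1; exons with no sorted insertion are left out. In Zmiz1 most of the blue bars (repressor sorted) are at exons 7 and 8 and most of the red and orange bars (activator sorted) at exon 23, with 4 and 1 at exon 7, whereas in Gon4l all 4 libraries peak at exon 22.

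The position of the tag in the protein was read from the leading acceptor of each gene. The leading acceptor had under 10% of the coding sequence ahead of it in 73 of 103 one-way activator genes (70.9%), in 134 of 161 one-way repressor genes with a matching exon (83.2%) and in 72.1% of all genes tested. Over 50% lay ahead of it in 8 and 4 of them (7.77% and 2.48%), against 5.60% of all. These shares describe genes and were not tested.

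Assigned by the reversed strand, 77 genes were higher in the activator sorted and 104 in the repressor sorted libraries. Of the 22724 insertions of these genes, 21769 (95.8%) lay at positions that the sense assignment gives to a gene called above, so they are mostly the same insertions under the name of a gene on the other strand. Only 4 and 10 genes were called in the same direction by sense and by reversed insertions, and none in opposite directions.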

How the data were processed

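ORFtag insertions were mapped by inverse PCR and sequencing of 12 mESC libraries, of which 8 (sorted and unsorted cells of the activator and repressor screens) were analysed here and the PTGR unsorted pair entered 1 alternative. Per the labels and the study's methods, the authors trimmed reads (Trim Galore 0.6.0), mapped first mates to mm10 (Bowtie2), and filtered out duplicate and poorly mapping alignments (SAMtools 1.9). Each insertion was then given to the nearest downstream exon of protein-coding GENCODE transcripts other than a first exon. The deposited lists hold a position, an exon and a distance in bp per insertion. The deposited tables hold counts per gene summed over replicates, and the authors' odds ratios and p-values, which were not used. The counts made here equalled the deposited sums for 20407 (activator) and 20400 (repressor) of 20409 genes.

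Unique positions (chromosome, start, strand) with a distance of at most 200 kb were counted per gene and library. Read numbers per insertion are not in the lists, so intervals and limits of 3 counts cover counting error only. The direct fit used edgeR 4.0.16 (R 4.3.3; TMM, quasi-likelihood test) on the 4 sorted libraries, genes with at least 10 insertions and group as the only term; SE is the log2 fold change over the square root of F. The fit against own unsorted libraries used all 8. Positive log2 fold changes mean more in activator sorted libraries. Without TMM factors the median log2 fold change of all genes tested rose by 0.29, from 0.14 to 0.43, and the activator share of calls went from 42.4% to 44.6%. Both functions were tested on simulated data. Named genes were the 12 per direction with the lowest adjusted p and at least 5 insertions in each library of the higher group, all two-way genes, Zmiz1, Zmiz2, Gon4l, Zfp57, Yap1 and Trim28, and up to 4 called members per gene list; Vgll4, Bicra, Tead2, Mrtfa and the zinc finger genes of the activator side, and Foxo4 and Tada3 were added after their values were seen. Members, lists and tests were chosen with earlier results of these data known. Gene positions and exon starts are from GENCODE vM21 (GRCm38, the same assembly as mm10), where 1065 of 1067 acceptors tested were exon starts, 1058 of them after an AG. Alternatives covered scaling, DESeq2 1.42.0, Fisher's exact test, filters, thresholds, distance, shared, close or repeated positions, a replicate block, each sorted library left out and the reversed assignment. Results for some genes are not reported here.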

Additional observations from a re-analysis of the deposited data

Results flagged for a closer look

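The change from the own unsorted libraries differed between the screens, by the interaction term of the fit of 8 libraries, at 74 genes toward the activator screen and at 117 toward the repressor screen (edgeR, adjusted p below 0.05). Of these, 73 and 115 were also called in the same direction by the direct comparison. By the reversed assignment, which is outside the direct comparison of sense insertions, 77 genes had more insertions in the activator sorted and 104 in the repressor sorted libraries. At 68 genes the unsorted libraries of the screens differed from each other.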

How the results depend on the processing

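The direct comparison called 125 genes on the activator and 170 on the repressor side. Under other scaling, filters, thresholds, distance and position rules and under DESeq2 (86 and 128) and Fisher's test (161 and 172), both counts stayed within 1.5 times of these. The exceptions were the interaction term (74 on the activator side) and the reversed assignment (77 and 104). Leaving out 1 sorted library gave 39 to 93 genes on the activator side and 95 to 171 on the repressor side. The activator side fell to 39 without repressor sorted replicate 2 and to 79 without repressor sorted replicate 1, and the repressor side to 95 without activator sorted replicate 1 and to 109 without repressor sorted replicate 1. No called gene passed the test in the opposite direction under any alternative. Changes of sign that did not pass were read for named genes only. The replicate block gave 121 and 167 calls. Between the screens replicate numbers name samples only (correlation of same-numbered deviations across genes -0.02 for activator sorted with repressor sorted). Within the activator screen they also mark shared positions. Activator sorted replicate 2 shared 19.5% of its positions with unsorted replicate 2 and 1.46% with unsorted replicate 1. Activator sorted replicate 1 shared 4.96% with unsorted replicate 1 and 2.25% with unsorted replicate 2. In the repressor screen both sorted replicates shared more with unsorted replicate 2. The main fit against own unsorted libraries had no replicate term.

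One-way activator genes numbered 31 to 89 and one-way repressor genes 95 to 166 with 1 sorted library left out. Two-way genes numbered 2 to 5 there, 2 with the replicate block (Gon4l and Maml1), 4 by Fisher's test on own unsorted libraries, and 5 without TMM factors (Tada3 and Zmiz1 added), at 50 kb (Foxo4 and Zmiz1 added) and, in an alternative chosen after seeing the data, with sorted positions removed from the unsorted libraries (Foxo4 and Tada3 added). Fisher's test on all 6 unsorted libraries gave 6 (Foxo4, Tada3 and Zmiz1 added). By acceptor, 87 to 146 and 122 to 214 were called with 1 sorted library left out, and the genes with opposite calls numbered 0 to 1.

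Among named genes 1244 values kept their direction and their side of the threshold, 71 no longer passed, 8 newly passed and 9 changed sign. All 9 were of Gon4l or Maml1, which did not pass the direct test. Maml1 ranged from -1.77 to 0.19 with 1 sorted library left out (0.19 without activator sorted replicate 1) and was 1.22 by the interaction term. Gon4l was 0.21 without TMM factors, 0.64 with at least 20 insertions, -0.44 to 0.40 with 1 sorted library left out (0.40 without activator sorted replicate 1 and without repressor sorted replicate 1), 0.0071 with positions within 10 bp counted once, 0.45 by the interaction term and 0.16 by Fisher's test. The causes were not tested. Sorted depth limits the smallest change that could be called.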
